A study of Mus musculus with 6 samples.

Results

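The 10 genes described here are 3 Notch receptors (Notch1, Notch2 and Notch3), 3 of their ligands (Jag1, Jag2 and Dll1), 3 target genes of the HES and HEY family (Hes1, Hey1 and Heyl) and Rbpj, the DNA-binding partner of the receptors. They were chosen by name, and their probes were found through the RefSeq accession that the scanner files give for each probe. All 10 genes had a probe, among 21368 genes named on the array. Notch1, Notch2 and Rbpj each had a second one, which gave 13 probes. All 10 genes passed the filter on dim probes, as did 14136 genes in all.

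RNA came from the epidermis of tail skin of wild type C57BL/6 mice, freed from the dermis with EDTA, amplified, labelled with Cy3 and hybridised to 1-colour arrays. The 3 young samples were from animals aged 8 weeks. Aged replicate 1 was from an animal of 22 months, and aged replicates 2 and 3 were from animals of 25 months. Whether the samples came from different animals is not in the labels; the spread behind each p-value is that between samples and may in part be technical. The RNA is of whole epidermis, in which fewer cells of a type and less RNA per cell cannot be told apart.

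Notch receptors are cut by a membrane protease and by gamma-secretase after a ligand on a neighbouring cell has bound them, and the freed intracellular part enters the nucleus, where it binds RBPJ and switches on HES and HEY repressor genes. In the epidermis the pathway is known for its role in the step from basal to suprabasal keratinocyte, and in the follicle for its role in the lineages that build the hair. HEYL and NOTCH3 are also well known from mural cells, the pericytes and smooth muscle cells of vessels.

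The labelled tissue was checked against keratinocyte markers. All 7 basal and all 7 suprabasal marker genes on the array were well above background, and their summed signal, in multiples of each array's 75th percentile, was 1020 to 1080 in young and 1110 to 1240 in aged samples for the basal list, and 2290 to 2360 against 2230 to 2490 for the suprabasal list. The 75th percentile itself lay between 230.2 and 300.3 signal units, between 50.02% and 54.38% of probes were well above background, and no spot was saturated. Replicate 1 stood apart in both groups, since the Y-linked genes Ddx3y and Eif2s3y were well above background in these samples and in no other. Leaving out aged replicate 1 therefore removes the only aged sample with these genes detected. It is also the only sample of 22 months, and these traits cannot be told apart. Young replicates 1 and 2 lay in slide row 1 and the other 4 arrays in row 2. A fit with the row as a block therefore rests on young replicate 3 against the aged arrays, which is also the value within row 2.

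Promoter windows of 300 bases, from 250 bases before to 50 after a transcription start, were at hand for 7 of the 10 genes, in 9 windows, from RefSeq on GRCm38.p6. They are shown for Jag2, the ligand whose young and aged values did not overlap, for its relative Jag1, and for Rbpj, the only one of the 7 genes with an RBPJ core in its window. The letters searched, on both strands, were TGGGAA, the core of the RBPJ site, and CACGCG, a site of HES repressors. Matches are in capitals, and no match of one motif overlapped a match of the other. Jag1 lies at chr2:137116471-137116770 and Jag2 at chr12:112929446-112929745, both on the minus strand, and Rbpj at chr5:53590096-53590395 on the plus strand.
Jag1: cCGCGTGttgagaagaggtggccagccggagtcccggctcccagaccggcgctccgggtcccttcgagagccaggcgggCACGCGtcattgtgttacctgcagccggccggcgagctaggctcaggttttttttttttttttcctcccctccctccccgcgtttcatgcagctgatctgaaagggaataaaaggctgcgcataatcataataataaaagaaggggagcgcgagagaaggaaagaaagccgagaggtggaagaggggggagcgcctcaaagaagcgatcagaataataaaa
Jag2: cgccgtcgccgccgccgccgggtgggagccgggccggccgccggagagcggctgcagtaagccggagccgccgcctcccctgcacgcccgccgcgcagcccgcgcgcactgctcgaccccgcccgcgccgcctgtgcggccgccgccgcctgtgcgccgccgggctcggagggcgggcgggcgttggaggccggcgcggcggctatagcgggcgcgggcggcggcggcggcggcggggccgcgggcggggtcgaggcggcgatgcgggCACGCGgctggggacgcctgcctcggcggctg
Rbpj: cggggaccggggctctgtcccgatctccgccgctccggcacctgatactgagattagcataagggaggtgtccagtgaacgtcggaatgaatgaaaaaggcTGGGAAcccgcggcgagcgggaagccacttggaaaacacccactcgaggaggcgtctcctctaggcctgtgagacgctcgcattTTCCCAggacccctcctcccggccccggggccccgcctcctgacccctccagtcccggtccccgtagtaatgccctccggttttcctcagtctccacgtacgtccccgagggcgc
CACGCG was found in windows of 4 genes, Notch2, Jag1, Jag2 and Dll1, against 9.27% of all 32851 windows. TGGGAA was found for Rbpj alone among the 7, with 2 matches in the window shown, against 25.6% of all windows. The members are counted by gene and the shares are by window, and base composition was not matched, so no enrichment is read from either motif. A match is only a run of letters, and no binding was measured here.

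In aged epidermis 0 of the 10 genes passed the threshold of the fit across all genes (limma, Benjamini-Hochberg adjusted p under 0.05), which 0.0778% of all genes tested did. At an unadjusted p under 0.05 there were 3, Jag2, Heyl and Hey1. The ligand Jag2 was higher and the target genes Hey1 and Heyl were lower in aged than in young samples. Over all genes tested 17.7% lay under this p, 11.4% on the higher and 6.30% on the lower side. The same 3 genes were the ones whose young and aged values did not overlap, which held for 27.0% of all genes, 19.5% higher and 7.48% lower. The median difference of the 10 genes was 0.09 on the log2 scale, as was that of all genes tested, with 6 higher and 4 lower; under quantile normalization Notch2 changed sign and the split was 5 to 5.

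**Figure D1:**
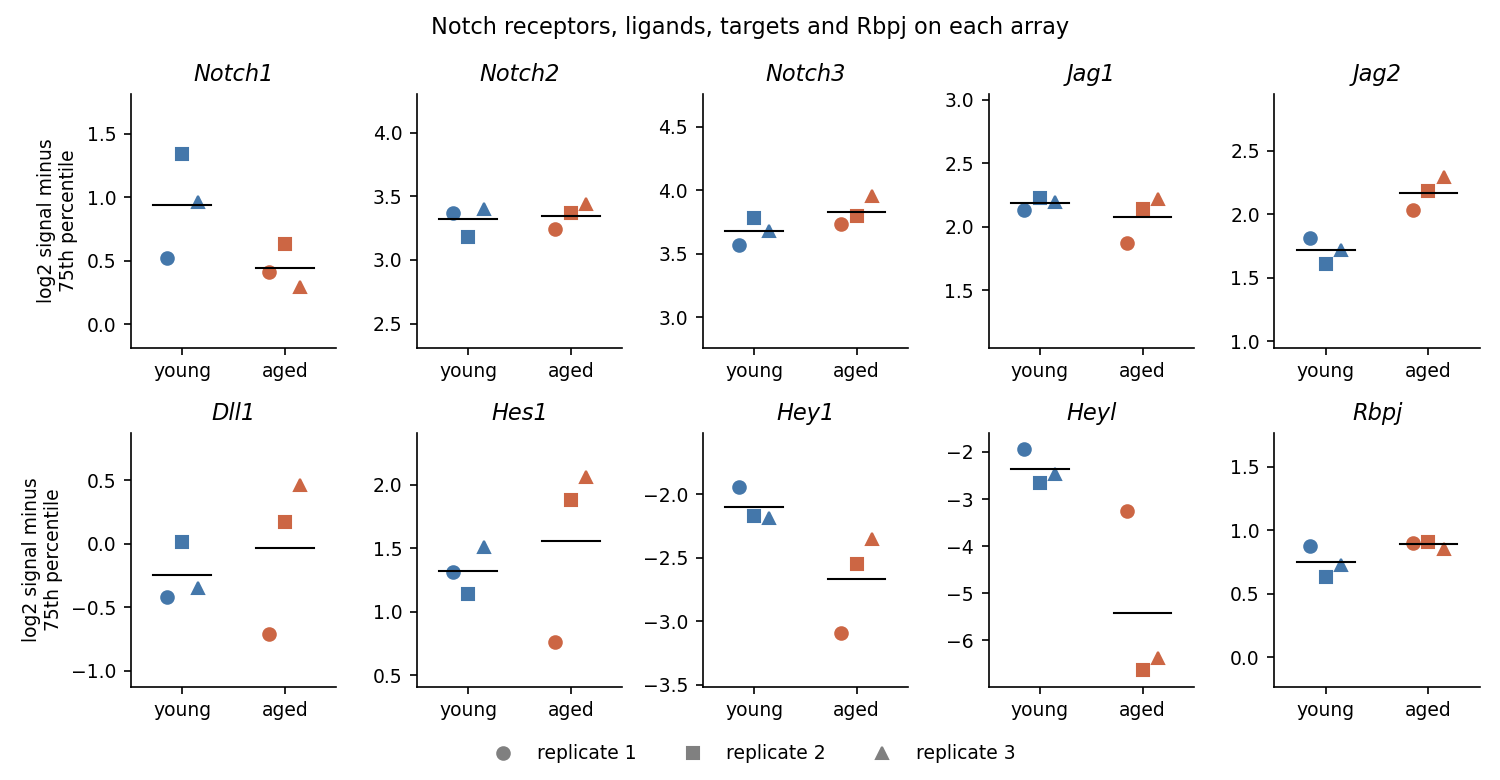
Each panel plots 1 gene's log2 signal minus the array's 75th percentile on the 3 young (blue) and 3 aged (orange) arrays, with a line at each group's mean; the y axes span 2 log2 units except for Heyl, and levels of different panels are not comparable. Jag2, Hey1 and Heyl show no overlap of the groups, while aged replicate 1 (circle) lies below all 5 other samples for Hes1, Dll1, Hey1 and Jag1.

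Of the receptors, Notch1, the main receptor of suprabasal keratinocytes, had log2 signals of 0.52, 1.34 and 0.96 in young and 0.41, 0.63 and 0.29 in aged replicates 1 to 3. Values here and below are log2 signal minus the array's 75th percentile. Young replicate 1 lay below aged replicate 2, so the groups overlapped by this pair of arrays. The difference was -0.50 ± 0.23 (SE, n = 3 arrays per group, 95% interval -1.05 to 0.06, limma adjusted p = 0.308). A second, dimmer Notch1 probe gave -3.10, -3.41 and -2.88 in young and -3.35, -3.06 and -2.12 in aged samples, a difference of 0.28, so the probes of this gene differed in sign. With the mean of both the difference was -0.11, so no direction is given for Notch1. For the brighter probe the value within slide row 2 was -0.52 ± 0.36.

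Notch2 and Notch3 varied little between samples. Notch2 read 3.37, 3.18 and 3.40 in young and 3.24, 3.37 and 3.44 in aged samples, and its groups overlapped throughout. Its difference was 0.03 ± 0.12 (interval -0.26 to 0.33, limma adjusted p = 0.907), a value whose sign turned under quantile normalization, with the slide row as a block and without young replicate 2 or aged replicate 3. The second, dimmer Notch2 probe differed by 0.21, with young values of -4.10 to -3.44 and aged values of -3.80 to -3.45. Notch3 read 3.57, 3.78 and 3.68 in young and 3.73, 3.80 and 3.95 in aged samples. Only young replicate 2 reached into the aged range, and the difference was 0.15 ± 0.12 (interval -0.14 to 0.44, adjusted p = 0.534). The intervals of both genes leave out a change as large as 2-fold in either direction.

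Among the ligands, Jag2, a ligand of basal keratinocytes, stood at 1.81, 1.61 and 1.72 in young and 2.03, 2.18 and 2.29 in aged samples. All 3 aged values lay above all 3 young values. The difference was 0.45 ± 0.12 (1.37-fold higher, interval 0.15 to 0.75, unadjusted p = 0.00983, limma adjusted p = 0.180). It lay between 0.37 and 0.57 under every alternative run, and was 0.44 ± 0.20 within slide row 2 (limma adjusted p = 0.695). Jag2 was the member with the smallest p, at rank 712 of the 14136 genes.

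Jag1, the other Jagged ligand, which is known from the suprabasal layers and the hair follicle, read 2.13, 2.23 and 2.20 in young and 1.87, 2.14 and 2.22 in aged samples. Only aged replicate 1 lay outside the young range. The difference was -0.11 ± 0.13 (interval -0.43 to 0.21, adjusted p = 0.683), and without aged replicate 1 it was -0.0057. Dll1, a ligand reported in basal keratinocyte clusters, was measured by 10 spots per array. It read -0.42, 0.01 and -0.35 in young samples, -0.71 in aged replicate 1, and 0.17 and 0.46 in aged replicates 2 and 3. One aged sample lay below all young samples and the others above them, and the difference was 0.23 ± 0.32 (interval -0.55 to 1.01, adjusted p = 0.734).

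Rbpj, which carries the signal to DNA and represses the same genes when no receptor is bound, was nearly level. Its brighter probe read 0.88, 0.63 and 0.73 in young and 0.90, 0.91 and 0.85 in aged samples. Young replicate 1 lay within the aged range, and the difference was 0.14 ± 0.11 (interval -0.14 to 0.42, limma adjusted p = 0.539). The dimmer Rbpj probe differed by -0.10, with young values of -2.16 to -1.94 and aged values of -2.37 to -1.85. The probes thus differed in sign.

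**Figure D2:**
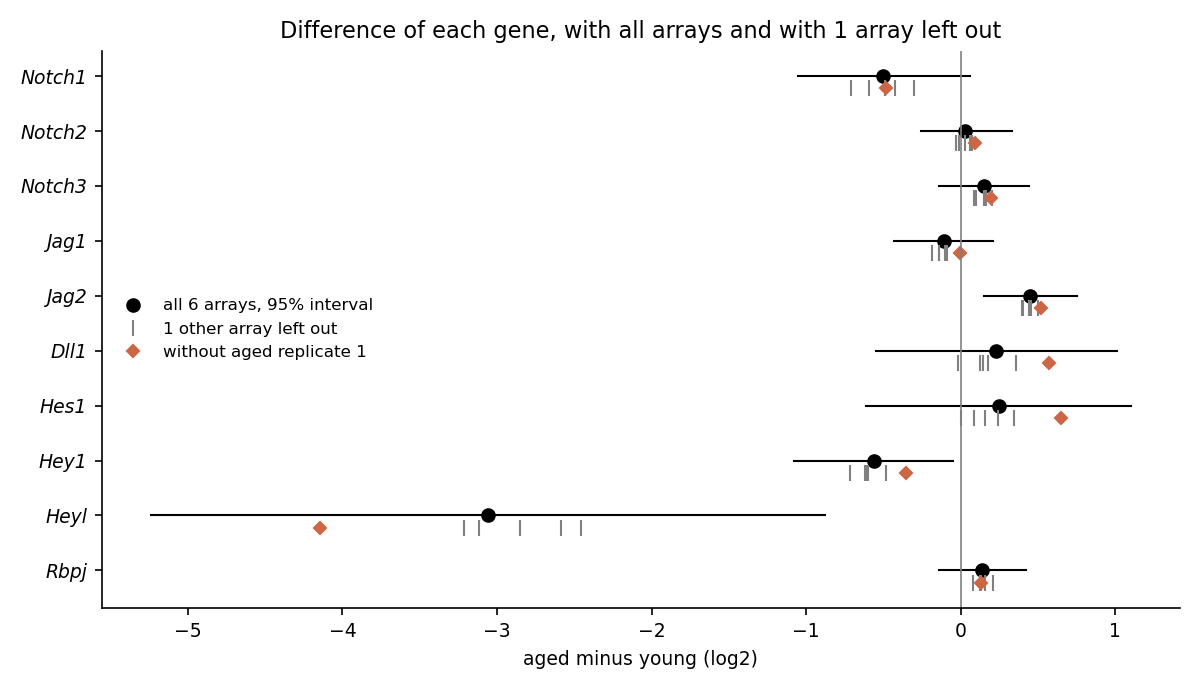
Aged minus young difference in log2 units for each of the 10 genes: black points with 95% intervals use all 6 arrays, grey ticks leave out 1 array each, and orange diamonds leave out aged replicate 1. Without aged replicate 1 the difference of Hes1 was 0.65 and that of Dll1 0.57; the points for Heyl rest on a probe that was not well above background in aged replicates 2 and 3.

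The target genes differed in direction and size. Heyl, a HEY family repressor, had the largest fitted difference of the 10 genes. It read -1.94, -2.66 and -2.47 in young samples and -3.25, -6.63 and -6.37 in aged replicates 1, 2 and 3. In signal units these are 72.9, 41.3 and 47.6 against 31.5, 2.8 and 2.8. The 3 aged values all lay below the young ones, and aged replicates 2 and 3 were not well above background, so the probe was measured in 1 of 3 aged samples. The fitted difference was -3.06 ± 0.90 (limma unadjusted p = 0.0136, adjusted p = 0.193). Its size is uncertain: with the dim arrays set to the lowest signal well above background on each, -4.78 and -4.45, the difference was -1.80, or 3.49-fold, and with normexp background correction it was -0.69 ± 0.15. Within slide row 2 it was -2.95 ± 1.39. Aged replicate 1 was the only aged sample that measured the probe. Without it the aged group gives no size, and Heyl stayed in the fit through the young samples alone. With aged replicates 2 and 3 set to the lowest signal well above background on each, Heyl was 4.78-fold lower than the young mean. Some probes above that signal were also not well above background, so 4.78-fold is not a strict minimum. Heyl passed the threshold without aged replicate 1, as did 5.72% of all genes. It also passed without replicate 1 of both groups, as did 1.52% of all genes. There the same replacement gave 4.14-fold, again not a strict minimum. These calls set detected young against undetected aged samples and add no support to a size.

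Markers of other cell types were read on the same arrays. None of the hair, melanocyte, mural or endothelial markers passed the threshold. All 16 markers on the array for the inner root sheath and hair shaft were lower, 13 of them at an unadjusted p under 0.05, and their median deviation from the young mean was -0.74, -3.17 and -5.95 in aged replicates 1, 2 and 3. Their summed signal was 1640 to 2580 times the 75th percentile in young and 94 to 1360 in aged samples. All 9 melanocyte markers were lower as well, 5 of them at an unadjusted p under 0.05, with median deviations of -0.11, -1.76 and -1.79 and summed signals of 15.5 to 19.5 in young and 5.22 to 14.1 in aged samples. Tyr and Slc45a2 were each well above background in 1 of 3 aged samples and Kit in 2, so part of these values rests on undetected probes. Heyl itself deviated by -0.90, -4.28 and -4.01. Of 9 mural markers 3 could be tested; their median deviations were 0.09, -0.76 and -0.38, and the list's summed signal of 4.2 to 5.69 in young overlapped that of 4.03 to 5.55 in aged samples. The mural genes Des, Kcnj8, Myh11 and Pdgfrb were not well above background in any sample. Of 9 endothelial markers 3 could be tested, with summed signals of 4.7 to 5.51 against 4.39 to 4.84, and Cdh5, Emcn, Esam, Sox18, Tek and Tie1 were above background nowhere. Of 7 fibroblast markers 4 could be tested and 2, Col1a1 and Col3a1, fell past the threshold, with a list median deviation of -2.02, -2.38 and -2.33 in aged replicates 1, 2 and 3. Col3a1 was well above background in 3 young and 0 aged samples, and Col1a1 in 3 young and 2 aged samples. The call on Col3a1 thus sets detected young against undetected aged samples and gives no size. Col1a2 differed by -2.08 ± 0.35 without overlap (limma adjusted p = 0.111). Dcn, at 4.34 in aged replicate 1 and 1.19 to 2.84 in the other samples, carried most of the list's summed signal, which was 5.37 to 8.17 in young and 2.55 to 20.6 in aged samples. Dpt, Lum and Pdgfra were not above background. The part of these cell types in the Heyl result was not tested.

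**Figure D3:**
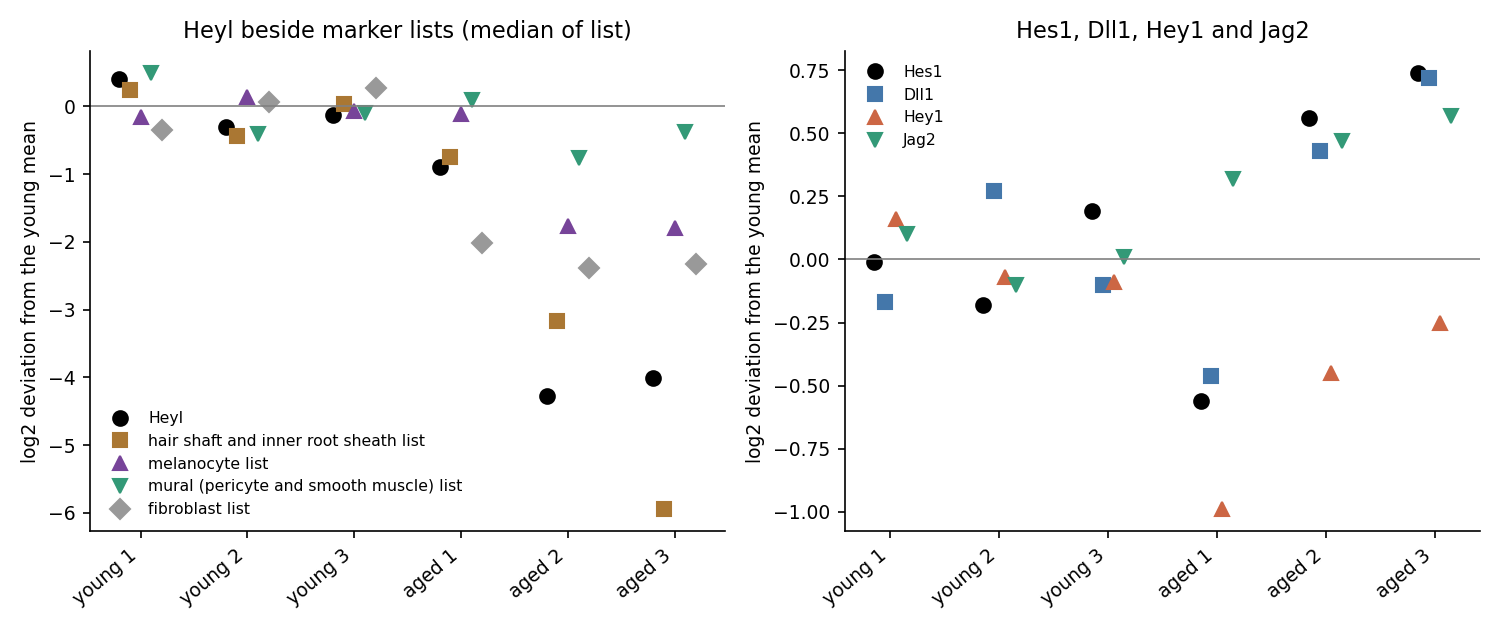
Log2 deviation from the young mean on each array, on the left for Heyl and for the median of 4 marker lists, and on the right for Hes1, Dll1, Hey1 and Jag2. Heyl and all 4 marker lists lie nearest the young level in aged replicate 1 among aged samples, while Hes1 and Dll1 deviate by -0.56 and -0.46 there and by 0.43 to 0.74 in the other aged samples.

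Hey1, the second HEY family repressor, differed less. It read -1.94, -2.17 and -2.19 in young and -3.09, -2.55 and -2.35 in aged samples, all well above background. All aged values lay below all young values, the lowest in aged replicate 1. The difference was -0.56 ± 0.21 (1.48-fold lower, interval -1.08 to -0.05, unadjusted p = 0.0367, limma adjusted p = 0.247). It was -0.35 without aged replicate 1 and -0.25 ± 0.11 with normexp background correction, and -0.47 ± 0.33 within slide row 2. Its unadjusted limma p was 0.05 or over in these fits, with quantile normalization and with scaling to the median. The same held when any single array other than aged replicate 3 was left out, with p from 0.0556 to 0.109. Without aged replicate 3 the p was 0.0163. It was 0.108 without replicate 1 of both groups and 0.0714 in the fit that blocks on replicate number. The p stayed under 0.05 with the other filters, the other probe rule and the deposited table.

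Hes1, a repressor that holds keratinocyte precursors back from late differentiation, split the aged samples. Young samples read 1.31, 1.14 and 1.51, aged replicate 1 read 0.76, and aged replicates 2 and 3 read 1.88 and 2.06. The aged group thus lay on both sides of the young group, as for Dll1, and its SD was 0.70 against 0.19 in the young group. The difference was 0.25 ± 0.35 (interval -0.61 to 1.1, limma adjusted p = 0.741). Without aged replicate 1 it was 0.65 ± 0.16 (adjusted p = 0.0857), without aged replicate 3 it was -0.0006, and within slide row 2 it was 0.05 ± 0.54. Without aged replicate 1, 6 of the 10 genes had groups that did not overlap, against 47.0% of all genes in that fit. Aged replicate 1 was also the sample with the lowest summed signal of Langerhans and other leukocyte markers, 5.47 against 12.3 to 17.7 in the other samples, with a median deviation of -2.75 over the 9 tested of 11 markers and Cd3d above background nowhere. The median deviation was -0.75 and -0.01 in aged replicates 2 and 3. Of the 9 markers 7 were lower and 2 higher in aged samples. Thy1, 1 of the 2, adds to the sums of aged replicates 2 and 3, at 3.17 and 2.54 against 0.33 to 1.28 in young samples. Aged replicate 1 had the highest summed signal of the 7 sebaceous markers, 103 against 29.5 to 64 in the others, where 64 was young replicate 1. This did not hold for each marker: Awat2 was at -4.98 in aged replicate 1 against -4.33 to -3.69 in young samples. The part of these cells in the values of Hes1, Dll1 and Hey1 was not tested.

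The titles number the replicates 1 to 3 in both groups. With the replicate number as a block the differences of the 10 genes stay as they are and only their errors change: 0 genes of the whole array passed in place of 11, and the members at an unadjusted p under 0.05 were Heyl, Jag2 and Notch1, the last in place of Hey1. In that fit the limma adjusted p was 0.170 for Heyl, 0.207 for Jag2, 0.235 for Notch1 and 0.282 for Hey1.

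A list of 78 other genes of the pathway, by role, held 76 on the array and 70 that could be tested. None passed the threshold; 46 were higher and 24 lower, with a median of 0.10, against 0.09 over all genes. At an unadjusted p under 0.05 there were 7, 4 higher and 3 lower, and 12 had groups that did not overlap, 9 higher and 3 lower. Both shares of the 70 genes were below the 17.7% and 27.0% of all genes tested. Scaling to the median changed the split to 55 higher and 15 lower. Among further receptors and ligands 3 of 6 could be tested: Dlk2, a non-canonical ligand of basal keratinocytes, at 0.36 ± 0.21, Dll3 at -0.10 ± 0.21 and the endothelial receptor gene Notch4 at -0.03 ± 0.27, whose sign turned under all 3 other scalings. Dll4, the ligand of endothelial tip cells, was well above background on 1 array, and Dlk1 and Dner on 0.

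Of 7 tested feedback and HES family genes 3 had an unadjusted p under 0.05. Nrarp, a feedback inhibitor induced by Notch signalling, read 1.40, 1.25 and 1.29 in young and 1.70, 1.56 and 1.77 in aged samples, without overlap. Its difference was 0.37 ± 0.12 (limma unadjusted p = 0.0188, adjusted p = 0.209). Hes6, a HES relative that counters HES1, read 1.2, 1.12 and 1.25 against 1.79, 1.32 and 1.64, again without overlap, and differed by 0.39 ± 0.15 (adjusted p = 0.256). Hes2 went the other way, from 0.21, 0.41 and 0.38 to -0.56, -0.36 and 0.24, with aged replicate 3 inside the young range and a difference of -0.56 ± 0.22 (adjusted p = 0.262). Hey2 was above background on 1 array and Hes3 and Helt on 0. Of this group and the rest of the pathway, 3 genes passed without aged replicate 1, a smaller share of the 70 than the 5.72% of all genes that passed there. They were Bhlhe40 (0.77 ± 0.13, limma adjusted p = 0.0320), Dtx3 (-1.01 ± 0.16, adjusted p = 0.0301) and Hes5. Hes5 was well above background in all 3 young samples and in aged replicate 1 alone among aged samples, so the others give no size. Set to the lowest signal well above background on each, they were 1.77-fold below the young mean. As for Heyl, that is not a strict minimum. With all 6 arrays Hes5 differed by -0.76 ± 0.36 (limma adjusted p = 0.317) and Bhlhe40 by 0.42 ± 0.30 (adjusted p = 0.489), both with overlapping groups. With normexp background correction on all arrays Hes5 differed by -0.11.

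Genes that process or move receptors and ligands differed in both directions. Dtx3, of the Deltex family of ubiquitin ligases, read -1.09, -0.84 and -1.05 in young and -1.46, -1.84 and -2.17 in aged samples, a difference of -0.83 ± 0.20 (limma unadjusted p = 0.00579, adjusted p = 0.153). Its relative Dtx4 read 0.35, 0.09 and -0.12 against 1.57, 1.14 and 0.46, a difference of 0.95 ± 0.30 (adjusted p = 0.207). The groups of neither gene overlapped, and the third of this group by p, Dtx3l, differed by 0.38 ± 0.22. Of 8 tested cleavage genes, Furin, the protease that cuts receptors on their way to the surface, differed by 0.33 ± 0.12 (adjusted p = 0.237). The gamma-secretase genes Psen2 and Aph1a differed by -0.29 ± 0.12 and 0.32 ± 0.15 (adjusted p = 0.270 and 0.313), and all 3 were without overlap.

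The remaining groups held 0 genes at an unadjusted p under 0.05. Of 6 sugar transferases of the receptor, 4 were higher, with Rfng at 0.22 ± 0.15, Lfng at 0.28 ± 0.21 and Eogt at 0.20 ± 0.16. Of 21 nuclear cofactors 13 were higher, with the co-activator Snw1 at 0.35 ± 0.14 and the co-repressor genes Cir1 and Hdac1 at 0.24 ± 0.11 and 0.19 ± 0.10. Of 10 keratinocyte genes linked to Notch 8 were higher, with Ccnd1, a cyclin of the G1 phase, at 0.45 ± 0.19 and the suprabasal keratin Krt1 at -0.43 ± 0.31.

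**Figure D4:**
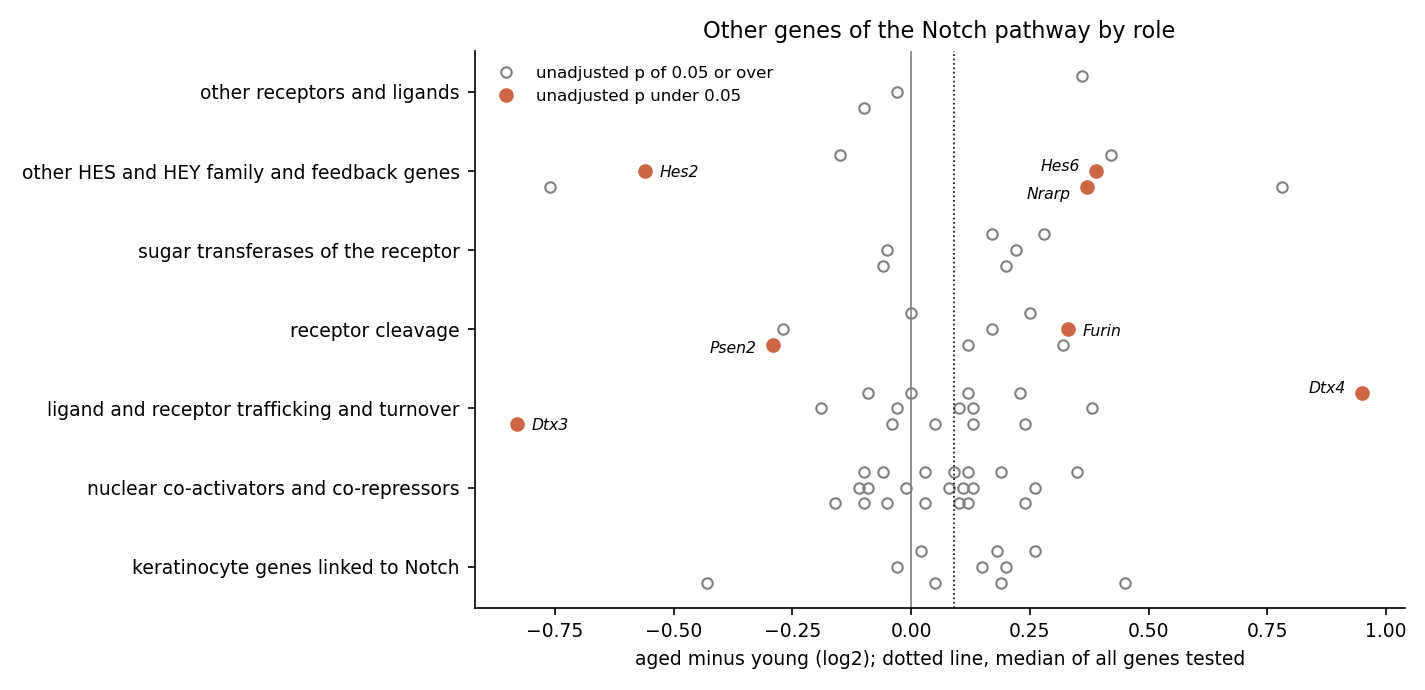
Aged minus young difference in log2 units of the 70 tested pathway genes, by role; filled points are the 7 genes at an unadjusted p under 0.05, and the dotted line is the median of all genes tested, 0.09. Dtx3 and Dtx4 lie at -0.83 and 0.95, and none of the 70 genes passed after adjustment.

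By root mean square distance between centred log2 values over the 6 arrays, the genes nearest to Heyl were Capn8, a calpain (0.147 log2 units), Tnni1, a troponin of slow muscle (0.242), and Cacna2d3, a calcium channel subunit (0.245). Like Heyl, all 3 were well above background in the young samples and aged replicate 1 and not in aged replicates 2 and 3, so their likeness to Heyl there is that of undetected probes, and their size of difference is not given. Nearest to Jag2 were Plpbp (0.0375), the kinase gene Mapkapk3 (0.0455) and Glud1, a mitochondrial dehydrogenase (0.0462), with differences of 0.41 ± 0.12, 0.46 ± 0.12 and 0.44 ± 0.11 and limma adjusted p of 0.191, 0.167 and 0.159. These genes were chosen for their likeness, so their differences are a description.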

How the data were processed

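Expression was measured on 6 Agilent 1-colour arrays, 3 young and 3 aged. The deposited processed signal is a linear intensity, which Feature Extraction 11.5.1.1 background-subtracted and detrended, per the file headers. Arrays were not yet put on a common scale. All lay on 1 slide, read in 1 scan, with probes designed on mm9. The deposited flags and median intensity values are raw, per the file headers. The authors' deposited table holds log2 values of 33870 probes, with column medians of -0.02 to 0.07. Set against the scanner files it matched the values described next, with each probe's median over arrays set to 0 (r of at least 0.9999 per array); how it was made is not given in the sources used here.

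Values were log2 intensity minus each array's 75th percentile over non-control spots. Outlier spots, 116 to 170 per array, were left out, and the spots of a probe were averaged. Accessions named 28331 of 55681 probes through a GRCm38.p6 table. Testing required a signal well above background on at least 3 arrays, and the brightest such probe stood for a gene, which left 25068 features. Aged and young samples were compared with limma 3.58.1 in R 4.3.3 (lmFit and eBayes, two-sided), with Benjamini-Hochberg adjustment over all features and a threshold of 0.05; the fit was tested on simulated data. With 3 arrays per group an exact permutation test cannot pass this threshold, so none is given. The number of arrays limits the precision.

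The titles number the replicates. Across features, the deviations from the group mean of young and aged samples with the same number had r of 0.414 for number 1, 0.259 for number 2 and 0.102 for number 3, so a fit with the number as a block was set beside the fit without it; deviations within a group cancel out, and no label says what samples of one number have in common. The genes named are the 10 members, the 3 of lowest p in each role group of the pathway list (1 of them is not reported here), and the 3 nearest to the members of highest and lowest signed difference; Bhlhe40, Hes5 and the undetected genes were named after their values were seen. The members and lists were chosen with earlier results of these data known. Alternatives were normexp on the median intensities, another scaling, filter and probe rule, the deposited table, the replicate number or slide row as a block, and leaving out arrays; the slide row was chosen after seeing the data.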

Additional observations from a re-analysis of the deposited data

How the results depend on the processing

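The number of genes past the threshold was 11, 6 of them higher, and moved with the setting. It was 15 with normexp, 11 of them higher, 7 with quantile normalization, 4 of them higher, and 21 with scaling to the median, 15 of them higher. It was 3 with probes above background on all 6 arrays, 1 with no filter, and 0 both with the replicate block and with a block for slide row, where limma put 2710 and 858 genes at an unadjusted p under 0.05. Leaving out 1 array gave 0 to 809 genes: 809 without aged replicate 1 and 0, with 1321 to 2411 at an unadjusted p under 0.05, without any other array. Without replicate 1 of both groups it was 215.

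The count of the 10 genes past the threshold was 0 under the other settings and 1, Heyl, without aged replicate 1 and without replicate 1 of both groups, where no aged sample left had Heyl well above background. At an unadjusted p under 0.05 it was 3, 2 to 4 with 1 array left out, 2 with normexp, quantile normalization or scaling to the median, each time without Hey1, and 0 with a block for slide row. Of all genes 9.34% to 23.5% were under this p with 1 array left out. The share was 20.5% with normexp, 16.7% with quantile normalization, 18.4% with scaling to the median and 6.07% with the slide row block. The replicate block changed no call on the 10 genes after adjustment. The count without overlap of the groups was 3, and 3 to 6 with 1 array left out: 5 without young replicate 1, 6 without aged replicate 1, and 8 without replicate 1 of both groups, where 44.9%, 47% and 65.6% of all genes did not overlap. Of other pathway genes 7 were at an unadjusted p under 0.05, against 3 with no filter, 1 with a block for slide row, 2 to 14 with 1 array left out (2 without young replicate 2 or 3, 3 without aged replicate 2, 14 without aged replicate 1) and 17 without replicate 1 of both groups. The share of all genes under this p was 10.6% with no filter and 6.07% with the slide row block. It was 9.59% without young replicate 2, 9.34% without young replicate 3 and 12% without aged replicate 2. Of all genes 23.5% were under this p without aged replicate 1 and 26.1% without replicate 1 of both groups, so the counts of 14 and 17 are below that share of the 70.

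Of 159 single gene values under the alternatives 151 kept their sign and their side of the threshold. Notch2 turned to -0.057 with quantile normalization, -0.049 with a block for slide row, -0.033 without young replicate 2 and -0.013 without aged replicate 3, where Dll1 turned to -0.017 and Hes1 to -0.0006. With 1 array left out the ranges were -0.033 to 0.0899 for Notch2, -0.017 to 0.5723 for Dll1 and -0.0006 to 0.6488 for Hes1. Heyl has no value with the filter on all 6 arrays, since it was not detected in aged replicates 2 and 3. Signal over background limits Heyl and the second probes of Notch1 and Notch2. Hey1 was dim as well, at 35.3 to 73.2 signal units, and its difference was -0.25 with normexp. The cause of these changes was not tested.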
